A study of Mus musculus with 5 samples.

Results

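Mitochondrial ribosomal protein genes were examined in CD8+ T cells recovered from mouse tumors, in 3 libraries from mice given Control IgG and 2 from mice given anti-PD-L1. Members were all gene symbols of the count tables that start with Mrps or Mrpl followed by a digit and that had at least 10 counts summed over the 5 libraries. All 76 symbols that match this pattern met the minimum, 29 Mrps and 47 Mrpl, of 23337 genes listed and 12783 with at least 10 counts. The member with the fewest counts, Mrpl53, had 1339 in all. All 76 also passed the low-count filter of the test, which kept 11299 genes.

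Mitochondrial ribosomes translate the few proteins encoded by mitochondrial DNA, which are core subunits of the respiratory chain and ATP synthase. Their small subunit reads the messenger RNA, and their large subunit joins amino acids and holds the exit tunnel. The ribosomal RNAs come from mitochondrial DNA, while every protein member is encoded in the nucleus and imported. Some of these proteins have bacterial homologs and others are found only in mitochondria. Activated CD8+ T cells enlarge their mitochondria, and in tumors a loss of mitochondrial function accompanies exhaustion.

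The cells in both groups were OT-I CD8+ T cells of C57BL/6J CD45.1 background, taken from donors 6 to 12 weeks old. Their transgenic receptor recognises an ovalbumin peptide. They were activated with anti-CD3 and anti-CD28, grown in interleukin-2 at 10 U/ml, and transferred into mice bearing B16-OVA, a single melanoma line that makes ovalbumin. Mice received 200 µg of anti-PD-L1, an antibody to a ligand of PD-1, or of anti-KLH rat IgG2b as control, 3 and 6 days after transfer. Tumors were taken 8 days after transfer, or earlier at a diameter of 1.2 cm. Live CD8+CD45.1+ cells were sorted from them. Strain and age of the tumor-bearing mice are not given in the labels. Tumors of several mice in 1 group were pooled before the sort, so a library is a pool, and p-values measure the spread between pools.

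Libraries held 9985943 to 12830485 counts assigned to genes. Both libraries numbered 1 stood apart, with 11696 and 11977 genes detected against 13564 to 13801 in the other 3. Markers that define T cells summed to 7045 to 7819 CPM (a gene's counts scaled to a library total of 1000000 counts assigned to genes) in controls and 7517 to 8987 CPM after anti-PD-L1, and all 8 were measured. Macrophage and monocyte markers, 9 of 9 with counts, summed to 93.9 to 221 CPM in controls and 91.3 to 151 CPM after anti-PD-L1. The 7 melanoma markers summed to 4.03 to 300 CPM and 40.1 to 103 CPM, with the extremes in Control IgG replicates 1 and 2. Natural killer markers summed to 143 to 583 CPM and 717 to 984 CPM, most of it Gzma, which CD8+ T cells also express, with 2 of 7 (Klra8 among them) at 0 in every library. B cell markers summed to at most 7.63 CPM in any library, with 2 of 6 markers at 0 in all 5. Dendritic cell markers reached at most 18.1 CPM, neutrophil markers 10.7 CPM and erythroid markers 21.2 CPM. CD4 T cell markers reached at most 24.7 CPM, of which 21.9 CPM was Cd40lg, and Cd4 itself at most 1.30 CPM. Fibroblast and endothelial markers reached at most 58.2 CPM, of which 57.6 CPM was Pecam1. The part of other cells in the results below was not tested. In bulk libraries fewer cells of a type and less RNA per cell cannot be told apart.

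The comparison asked whether PD-L1 blockade goes with another level of mitochondrial ribosome genes in these cells, and whether the small and the large subunit differ alike. No single gene passed the test. The median fold change lay below 0 and was nearly equal in both subunits. The median log2 fold change (anti-PD-L1 over Control IgG) of the 76 members was -0.19, against -0.02 over all 11299 genes tested. It was -0.19 for the Mrps and -0.19 for the Mrpl genes. Of the members, 60 had a log2 fold change below 0, 22 of 29 Mrps and 38 of 47 Mrpl, where 51.9% of all genes tested lay below 0 and 52.8% of the 5018 with a mean CPM in the range of the members.

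No member passed an adjusted p of 0.05 in edgeR's quasi-likelihood test, nor did any of the 11299 genes (0%). At an unadjusted p under 0.05, 1 member lay lower and 0 higher, while 0.947% of all genes tested lay lower and 1.19% higher. DESeq2 and limma-voom also called 0 members, with 1 and 2 lower at an unadjusted p under 0.05. The share of all genes under that unadjusted p was not taken in those fits. Over all genes DESeq2 called 4 and limma-voom 0. For 49 of the 76 members the fold change was smaller than its own standard error, and for 72 it was within 0.5 of 0 on the log2 scale. The median standard error was 0.28, so shifts of this size in a single gene were not detectable with these 5 libraries.

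**Figure D1:**
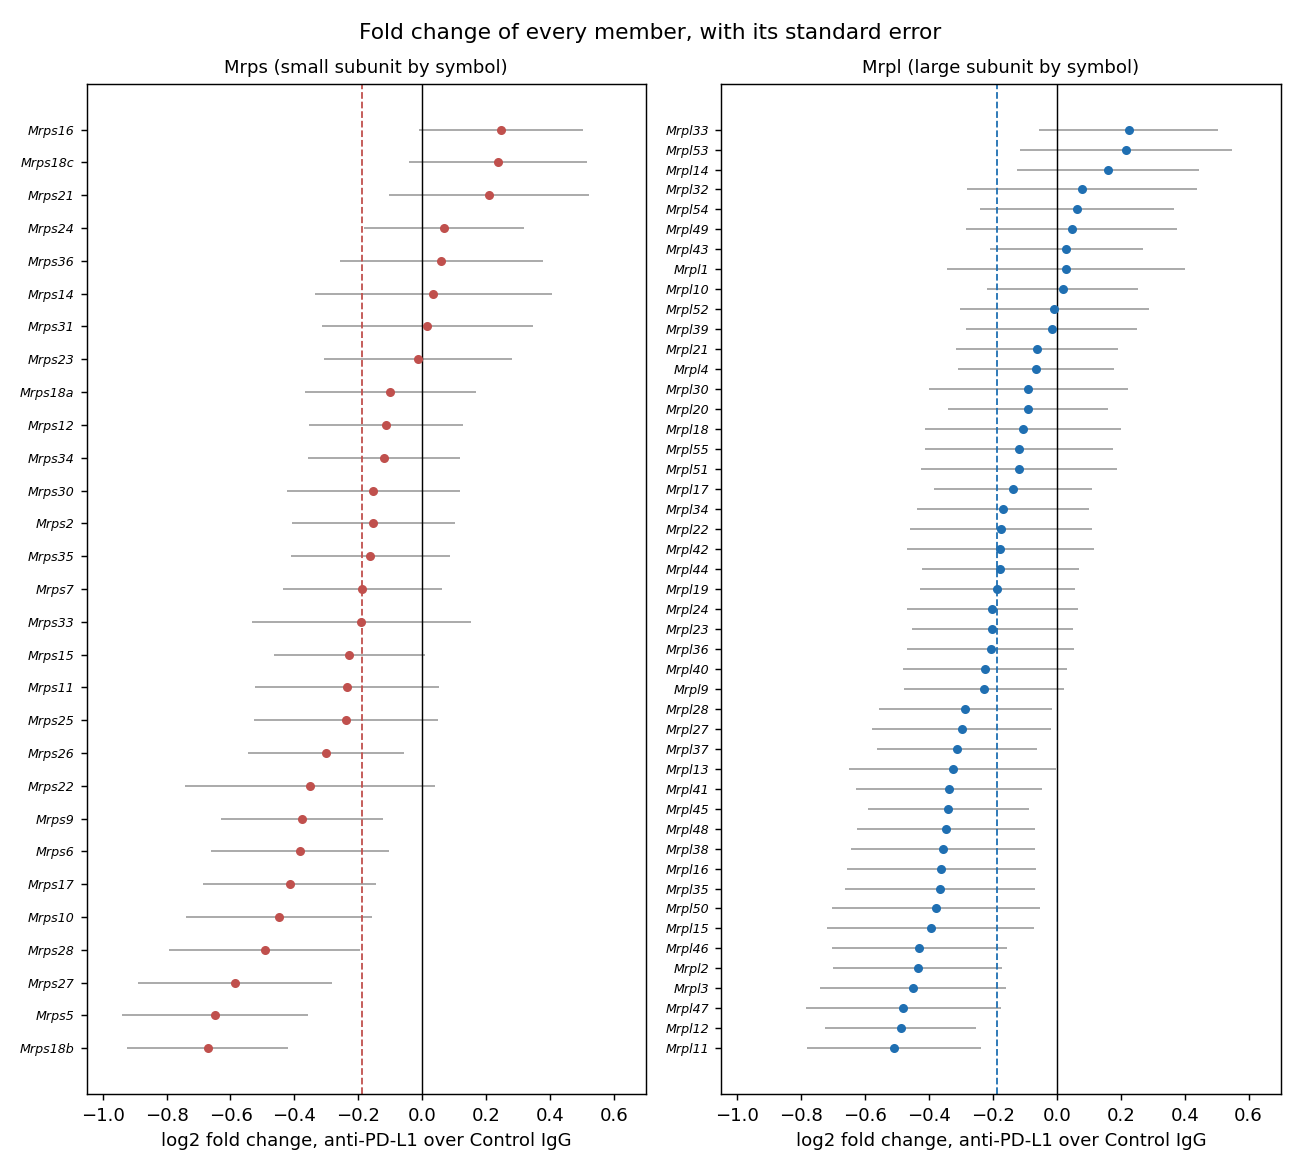
Log2 fold change (x axis, anti-PD-L1 over Control IgG) of each Mrps gene (left) and Mrpl gene (right), with bars of 1 standard error from edgeR and a dashed line at the median of each panel. Both medians sit at -0.19, the values run from -0.67 (Mrps18b) to 0.25 (Mrps16), and most bars cross 0.

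Summed over genes, the small subunit gave 2155, 2114 and 1861 CPM in Control IgG replicates 1, 2 and 3, and 1795 and 1755 CPM in anti-PD-L1 replicates 1 and 2. The large subunit gave 4155, 3925 and 3519 CPM in the same controls and 3392 and 3254 CPM after anti-PD-L1. On this scale both anti-PD-L1 libraries lay below every control for each subunit. Group means were 2043 ± 159 CPM (SD, n = 3) and 1775 ± 28.6 CPM (SD, n = 2) for Mrps, and 3867 ± 322 CPM and 3323 ± 98.0 CPM for Mrpl. All members together made up 0.591 ± 0.0478% of the counts in controls and 0.510 ± 0.0127% after anti-PD-L1.

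The order of the libraries depended on the scaling. TMM, which corrects for composition between libraries, moved the Mrps sums to 2387, 1971 and 1757 CPM in the controls and to 1927 and 1677 CPM after anti-PD-L1. Anti-PD-L1 replicate 1 then lay between the controls. The control with the highest sum was replicate 1, a library with few detected genes, as it was before this scaling. The Mrpl sums on the TMM scale were 4603, 3659 and 3322 CPM against 3641 and 3110 CPM, in the same order. Only anti-PD-L1 replicate 2 lay below all controls under both scalings.

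**Figure D2:**
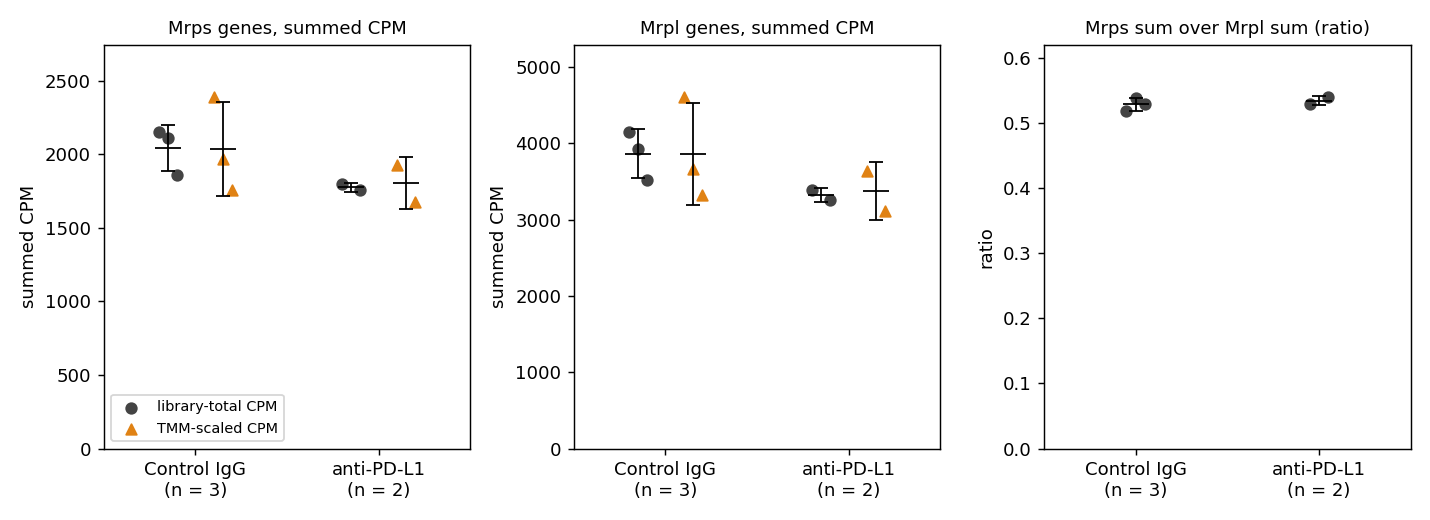
Summed CPM of Mrps genes (left) and Mrpl genes (middle) and the ratio of the sums (right) for each library, with the mean and SD of each group; circles are CPM from library totals and triangles are TMM-scaled CPM. The circles of anti-PD-L1 lie below all controls, the triangles overlap with them, and the ratios sit between 0.519 and 0.539 in all 5 libraries.

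The balance between subunits was nearly constant. The Mrps sum divided by the Mrpl sum was 0.519, 0.538 and 0.529 in the controls and 0.529 and 0.539 after anti-PD-L1, and scaling cannot alter this ratio. The group means were 0.529 ± 0.00997 (SD, n = 3) and 0.534 ± 0.00715 (SD, n = 2), a difference within the spread of the controls. Both sums describe the 2 sets of symbols, and members of a set are not replicates, so no test was made on them.

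Symbols do not always give the subunit. In the structure of the mammalian ribosome, Mrps18a and Mrps30 belong to the large subunit, and Mrps36 is known as a component of the 2-oxoglutarate dehydrogenase complex. With members placed by structure, 26 small-subunit genes had a median log2 fold change of -0.21 and 49 large-subunit genes one of -0.18. The ratio of the sums became 0.463 ± 0.0124 (SD, n = 3) in controls and 0.463 ± 0.00892 (SD, n = 2) after anti-PD-L1.

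Across members, the libraries differed in level and in spread. Relative to the mean of the controls on the TMM scale (log2), the median member stood at 0.28 in Control IgG replicate 1, -0.08 in replicate 2 and -0.18 in replicate 3. In the treated pools it was -0.09 (replicate 1) and -0.29 (replicate 2). The control numbered 1 was the highest library for 54 of 76 members, and anti-PD-L1 replicate 2 the lowest for 37. The median of anti-PD-L1 replicate 1 lay within the range of the controls, and that of replicate 2 below it.

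Of the treated libraries, members scattered more in replicate 1, with an SD across members of 0.32, from -0.97 for Mrps5 to 0.50 for Mrpl53. The SD was 0.18 in anti-PD-L1 replicate 2. Among the controls it was 0.21 in replicate 1 and 0.14 in replicates 2 and 3. Each control is part of the mean subtracted, which narrows its own deviations, so SDs compare within a group and not between groups. Genes tested with a mean CPM in the same range scattered more in every library, with an SD of 0.59 in anti-PD-L1 replicate 1, 0.44 in Control IgG replicate 1 and 0.28 to 0.34 in the others.

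**Figure D3:**
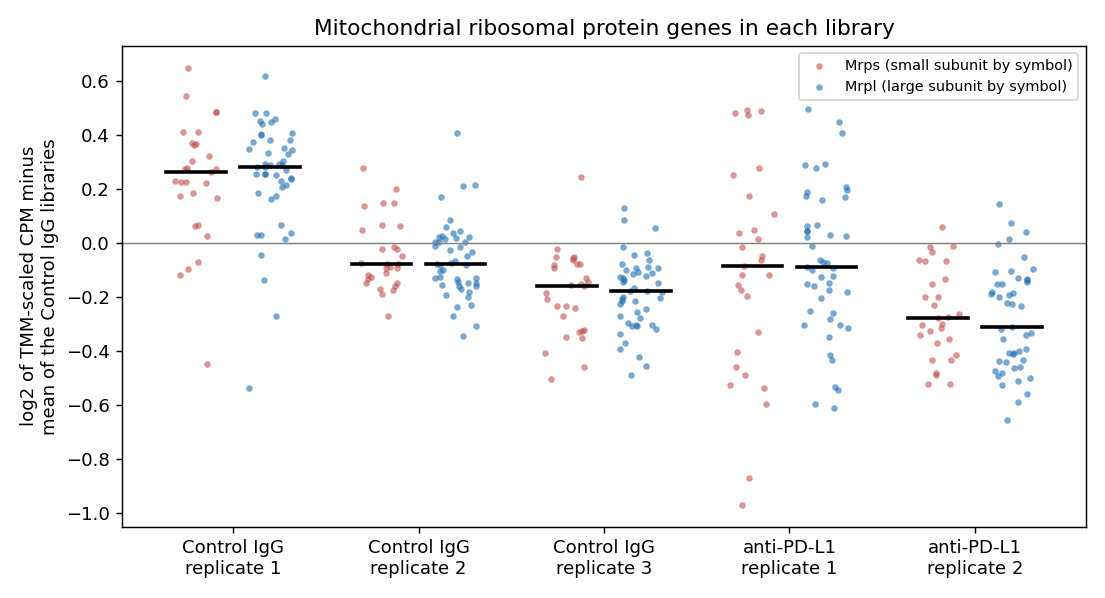
Log2 of TMM-scaled CPM minus the mean of the 3 Control IgG libraries (y axis) for each Mrps gene (red) and Mrpl gene (blue) in each library (x axis), with black lines at the medians. The points of Control IgG replicate 1 lie highest and those of anti-PD-L1 replicate 2 lowest. Of the treated libraries, replicate 1 scatters more. Each control is part of the mean it is set against, which narrows its scatter.

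The size of the median depended on single libraries. The median member had a log2 fold change of -0.07 without Control IgG replicate 1, where the median of all genes tested was -0.02. Without anti-PD-L1 replicate 2 it was -0.08, equal to the -0.08 of all genes tested in that fit. Without anti-PD-L1 replicate 1 it was -0.30, with 72 members below 0, and the median of all genes tested was -0.01. Without both libraries numbered 1 the median member had -0.19, with 65 members below 0, from 2 controls and 1 anti-PD-L1 library. The median of all genes tested was then -0.02. The share of all genes below 0 was not taken in these refits. In 42 members the fold change stayed below 0 whichever library was left out, and in 2, Mrpl14 and Mrpl33, it stayed above 0. No such count was made over all genes tested. The refits share libraries, so these counts only describe the members.

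In CPM, both anti-PD-L1 libraries lay below every control for 31 of 76 members, 11 Mrps and 20 Mrpl, where the share over all genes tested was 10.8% and over those in the members' range 12.5%. They lay above every control for 2 members, Mrps16 and Mrpl14, against 6.94% of all genes tested and 6.50% of those in the range. On the TMM scale the counts were 19 below, 10 Mrps and 9 Mrpl, where all genes gave 9.58% and genes in the members' range 10.8%, and 0 above, where all genes gave 7.74% and genes in the range 6.76%. These counts describe the members and are not a test. All members were read from the same 5 libraries. Under both scalings 16 members lay below all controls, namely Mrpl2, Mrpl3, Mrpl11, Mrpl12, Mrpl44, Mrpl46, Mrpl47, Mrpl48, Mrps5, Mrps9, Mrps10, Mrps18b, Mrps26, Mrps27, Mrps28 and Mrps35. The share of all genes tested that did so under both scalings was not taken. It cannot exceed the 9.58% found on the TMM scale.

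Among small-subunit genes, Mrps18b had the lowest fold change. It encodes one of several mammalian proteins related to the same bacterial protein and lies on GRCm38 chromosome 17 from 35910379 to 35916389 on the minus strand. It stood at 85.4, 118 and 99.2 CPM in Control IgG replicates 1, 2 and 3, and 50.5 and 73.9 CPM in the treated libraries 1 and 2. Both treated libraries lay below all controls. The log2 fold change was -0.67 ± 0.25 (SE), at an unadjusted p of 0.0283 and an adjusted p of 0.9999 in edgeR. Of its exon length 59.1% overlaps an antisense gene, Gm16279, and the library chemistry does not mark strand, so reads of the pair cannot be told apart.

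The other relatives of that bacterial protein had fold changes closer to 0. Mrps18c, also a small-subunit protein, stood at 55.9, 50.3 and 53.5 CPM in the controls and at 68.6 and 53.9 CPM after anti-PD-L1. Its log2 fold change was 0.24 ± 0.28. Only anti-PD-L1 replicate 1 lay above the controls. Mrps18a, found in the large subunit, stood at 69.5, 63.5 and 56.2 CPM and at 57.4 and 58.7 CPM, within the controls, with -0.10 ± 0.27. No test compared the 3 paralogs with each other. Whether shared sequence let reads be split between them was not tested.

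Mrps5, a homolog of a bacterial protein that takes part in accurate decoding, stood at 71.7, 66.5 and 67.7 CPM in the controls and at 32.3 and 55.0 CPM after anti-PD-L1. The controls were close together and both treated libraries lay below them, replicate 1 by more. The log2 fold change was -0.65 ± 0.29, and -0.38 without anti-PD-L1 replicate 1. The gene lies on chromosome 2 from 127587222 to 127606829 on the plus strand, with no exon shared with another gene.

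Mrps27, a mitochondria-specific protein that binds RNA, stood at 48.0, 38.7 and 38.3 CPM in controls and at 25.3 and 29.9 CPM after anti-PD-L1, with a log2 fold change of -0.59 ± 0.30. Mrps28 stood at 62.8, 49.7 and 46.8 CPM and at 34.6 and 40.5 CPM, with -0.49 ± 0.30. For both, anti-PD-L1 lay below every control under either scaling. Mrps10 had -0.45 ± 0.29 and the same order, while for Mrps17, at -0.41 ± 0.27, anti-PD-L1 replicate 2 lay within the controls. Without Control IgG replicate 1 the fold changes were smaller, -0.37 for Mrps27, -0.26 for Mrps28, -0.24 for Mrps10 and -0.28 for Mrps17.

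On the other side stood Mrps16, a homolog of a bacterial assembly and binding protein of the small subunit's RNA. It had 85.3, 82.4 and 83.3 CPM in controls and 107.5 and 86.3 CPM after anti-PD-L1. Its log2 fold change was 0.25 ± 0.26. In CPM both treated libraries were above all controls, and on the TMM scale they overlapped with them. Without anti-PD-L1 replicate 1 its fold change was -0.02, and without replicate 2 it was 0.50. Mrps21 had 0.21 ± 0.31, Mrps24 0.07 ± 0.25, Mrps36 0.06 ± 0.32 and Mrps14 0.04 ± 0.37.

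Mrps14 differed widely between the treated pools. Its level was 138, 111 and 87.3 CPM in controls and 143 and 81.8 CPM after anti-PD-L1, the highest and the lowest of the 5 libraries. Mrps12, part of the decoding centre, stood at 53.2, 75.4 and 66.7 CPM and at 56.1 and 61.0 CPM, inside the range of the controls, with -0.11 ± 0.24. The most abundant small-subunit transcripts by CPM were those of Mrps7, Mrps33 and Mrps14. Mrps7 had a log2 fold change of -0.19 ± 0.25, Mrps33 one of -0.19 ± 0.34 and Mrps30 one of -0.15 ± 0.27. Mrps7 ran from -0.31 to -0.05 and Mrps12 from -0.17 to -0.04 with 1 library left out.

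**Figure D4:**
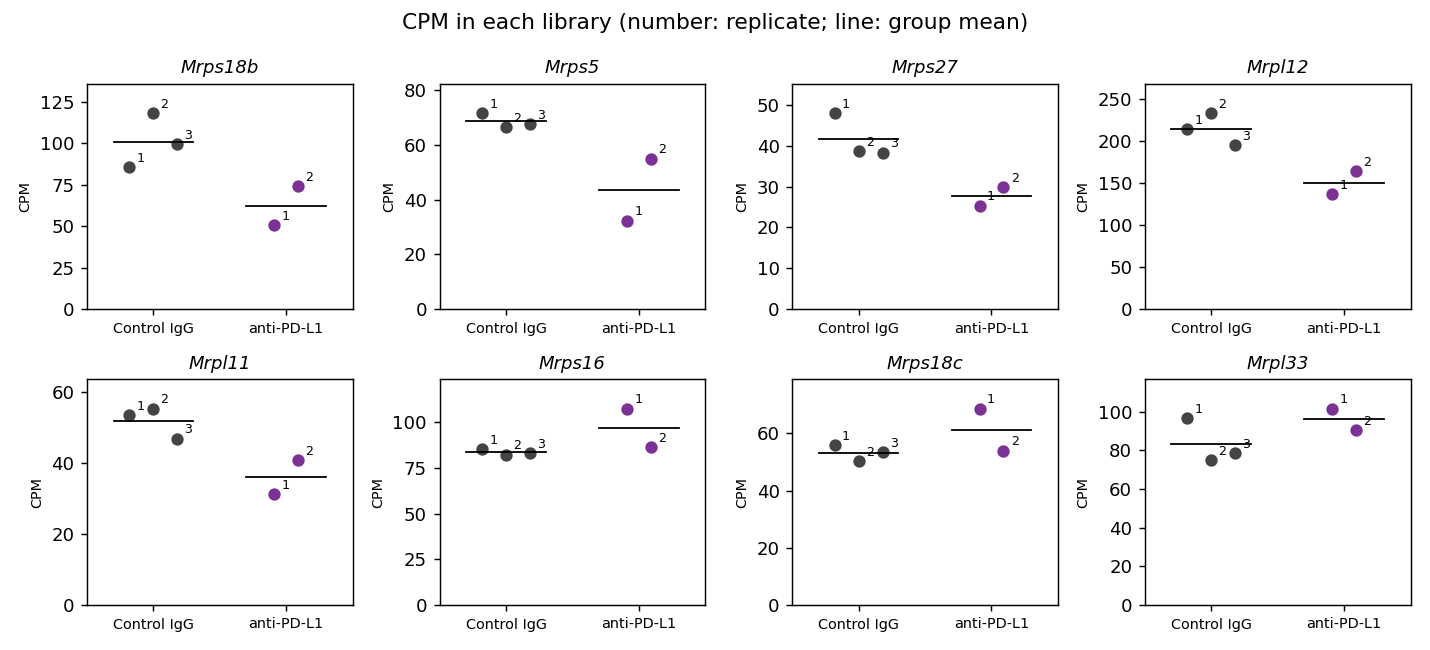
CPM from library totals (y axis, from 0) in each Control IgG library (grey) and anti-PD-L1 library (purple) for 8 members, with the replicate number beside each point and a line at each group mean. For Mrps18b, Mrps5, Mrps27, Mrpl12 and Mrpl11 both treated libraries lie below all controls, while for Mrps16, Mrps18c and Mrpl33 anti-PD-L1 replicate 1 lies highest.

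In the large subunit, Mrpl12 and Mrpl11 had the smallest p-values. Both belong to the region of the ribosome where translation factors bind, Mrpl12 as the stalk protein, which is also known to bind the mitochondrial RNA polymerase. Mrpl12 stood at 214, 233 and 195 CPM in the controls and at 137 and 164 CPM after anti-PD-L1. Its log2 fold change was -0.49 ± 0.24, at an unadjusted p of 0.0725, and ran from -0.58 to -0.40 with 1 library left out. It lies on chromosome 11 from 120484613 to 120489065 on the plus strand, and 15.2% of its exon length overlaps Gm16755 on the other strand. Mrpl11 stood at 53.4, 55.2 and 46.8 CPM and at 31.2 and 40.8 CPM, with -0.51 ± 0.27. In each case the treated libraries lay below all controls under both scalings.

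Mrpl2 and Mrpl3, homologs of bacterial proteins near the peptidyl transferase centre, had log2 fold changes of -0.44 ± 0.27 and -0.45 ± 0.29. Mrpl3 stood at 128, 99.8 and 89.6 CPM in controls and at 72.5 and 81.6 CPM after anti-PD-L1. Mrpl47, which sits at the exit of the tunnel, had -0.48 ± 0.30, and Mrpl46, which is specific to mitochondria, had -0.43 ± 0.27. For all 4, anti-PD-L1 lay below every control in CPM and on the TMM scale. Without Control IgG replicate 1 Mrpl3 had -0.19 and Mrpl46 -0.24, and without anti-PD-L1 replicate 2 Mrpl47 had -0.29. Mrpl44, related to an RNA-cutting enzyme family, had -0.18 ± 0.25 with the same order of libraries, at 46.2, 56.1 and 49.8 CPM against 41.8 and 45.9 CPM.

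Large-subunit genes with a positive fold change were few, 9 of 47. Mrpl33 stood at 96.6, 74.7 and 78.3 CPM in controls and at 101.5 and 90.4 CPM after anti-PD-L1, with a log2 fold change of 0.23 ± 0.28. Anti-PD-L1 replicate 2 lay within the controls. Mrpl14, at the interface of the subunits, stood at 33.6, 32.2 and 29.5 CPM and at 35.8 and 33.9 CPM, with 0.16 ± 0.28, above all controls in CPM and overlapping with them on the TMM scale. Without anti-PD-L1 replicate 1 the values were 0.05 for Mrpl33 and 0.03 for Mrpl14, and without replicate 2 they were 0.41 and 0.31. Mrpl53 had 0.22 ± 0.33, Mrpl32 0.08 ± 0.36, Mrpl54 0.06 ± 0.30 and Mrpl49 0.05 ± 0.33. The whole exon length of Mrpl53 overlaps other genes (100%), so its counts are uncertain.

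The most abundant members by CPM were Mrpl12, Mrpl18 and Mrpl4. Mrpl18, a homolog of a bacterial protein, had -0.11 ± 0.31, and Mrpl4 had -0.07 ± 0.24, at 186, 167 and 169 CPM in controls and 164 and 163 CPM after anti-PD-L1. Per length, the highest levels were those of Mrpl33 at 185 and Mrpl42 at 182 CPM per kb of exon, and the lowest those of Mrpl1 at 7.53 and Mrpl47 at 8.07 CPM per kb. These levels use all annotated exons of a gene, so a gene with a long annotated variant is set low.

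Of the 12 Mrps genes not named by rule 11 had a fold change below 0, from -0.38 (Mrps6) to 0.02 (Mrps31), with mean levels of 25.1 to 90.5 CPM. Of the 32 such Mrpl genes 29 did, from -0.40 (Mrpl15) to 0.03 (Mrpl43), at 28.2 to 137 CPM.

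Exon overlap with other genes was present in 25 members, whose median was -0.20, against -0.18 for the 51 without.

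Exon length ran with the fold change across members. The 25 shortest, of 478 to 1038 nucleotides, had a median of -0.11 and 17 below 0. The 26 of 1056 to 1849 nucleotides had -0.23 with 22 below 0, and the 25 of 1962 to 7605 nucleotides had -0.23 with 21 below 0. Across the 76 genes Spearman's rho between length and fold change was -0.28, where over 11158 genes tested with a known length it was 0.06. Genes share the same 5 libraries and are not independent replicates, so this is a description. Of the 16 members with a fold change above 0, 8 were among the 25 shortest, Mrpl33, Mrps21 and Mrpl53 among them, while Mrps16 has 2572 nucleotides.

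**Figure D5:**
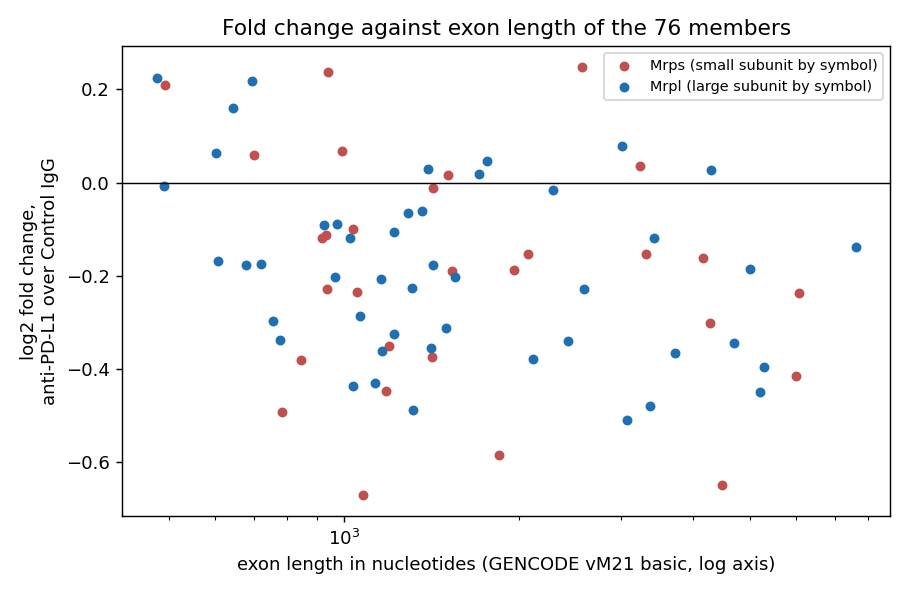
Log2 fold change (y axis, anti-PD-L1 over Control IgG) against exon length in nucleotides (x axis, log scale) for the 29 Mrps (red) and 47 Mrpl (blue) genes. Of the 16 values above 0, 8 belong to the 25 shortest genes, and Spearman's rho across the 76 genes is -0.28.

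The DNA before the start sites of the members was searched for 4 short motifs on both strands. Windows of 300 bases, 250 before and 50 after a RefSeq start on GRCm38.p6, were matched for 67 members in 73 windows. Mrpl4, Mrpl13, Mrpl15, Mrpl19, Mrpl38, Mrpl54, Mrps28, Mrps34 and Mrps35 were not matched. The ETS core CCGGAAG, which GABP binds, was in 32.9% of the members' windows and 8.86% of all 32851 windows. AAGATGG, the core that YY1 binds, was in 17.8% and 6.34%. GCATGCG, the core of the NRF1 motif, was in 8 of the 73 windows and in 3.58% of all, and CACGTG, the E-box that MYC binds, in 9.59% and 7.15%. A match is a description of letters and not of binding. No share was taken over windows of the genes tested, or of those in the members' range of CPM. Members with CCGGAAG, 24 genes, had a median log2 fold change of -0.12, and the 43 without it one of -0.23. For GCATGCG the medians were -0.08 (8 genes) and -0.20 (59 without), for AAGATGG -0.18 (13) and -0.20 (54), and for CACGTG, in the other direction, -0.21 (5) and -0.18 (62). Matches of CCGGAAG and AAGATGG overlapped in 0 member windows.

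Shown are the stretches free of annotated exons before the start of 4 members, the 2 per subunit with the smallest p among those with a match in such a stretch, each 5′ to 3′ on the gene's strand with the match in capitals. Mrps27 is at chr13:99344706-99344785 on the plus strand, Mrps22 at chr9:98601680-98601929 on the minus strand, Mrpl2 at chr17:46646023-46646220 on the plus strand and Mrpl9 at chr3:94443086-94443317 on the plus strand, all on GRCm38.p6 from RefSeq. Mrps27 holds the reverse complement of CCGGAAG and Mrps22 holds CCGGAAG next to its start. Mrpl2 holds CACGTG, and Mrpl9 a palindrome in which GCATGCG and its reverse complement overlap.
Mrps27: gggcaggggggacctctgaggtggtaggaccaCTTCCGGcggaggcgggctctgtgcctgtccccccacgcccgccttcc
Mrps22: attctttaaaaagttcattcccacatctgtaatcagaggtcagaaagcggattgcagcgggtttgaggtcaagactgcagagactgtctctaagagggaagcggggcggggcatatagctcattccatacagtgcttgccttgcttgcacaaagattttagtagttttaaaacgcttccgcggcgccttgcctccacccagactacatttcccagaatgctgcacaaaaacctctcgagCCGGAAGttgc
Mrpl2: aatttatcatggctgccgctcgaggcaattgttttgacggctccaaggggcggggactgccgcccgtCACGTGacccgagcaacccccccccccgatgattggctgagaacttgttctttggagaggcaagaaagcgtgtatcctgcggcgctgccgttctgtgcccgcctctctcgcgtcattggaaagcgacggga
Mrpl9: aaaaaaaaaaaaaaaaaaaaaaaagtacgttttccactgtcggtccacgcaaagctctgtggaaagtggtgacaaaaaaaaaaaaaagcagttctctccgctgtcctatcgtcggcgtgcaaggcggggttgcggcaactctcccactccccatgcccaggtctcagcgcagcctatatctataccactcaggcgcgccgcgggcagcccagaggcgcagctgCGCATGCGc
The log2 fold changes of these genes were -0.59 ± 0.30 for Mrps27, -0.35 ± 0.39 for Mrps22, -0.44 ± 0.27 for Mrpl2 and -0.23 ± 0.25 for Mrpl9. Mrps5, Mrpl11 and Mrpl12, with fold changes of -0.65 ± 0.29, -0.51 ± 0.27 and -0.49 ± 0.24, had 0 matches in their windows, and the windows of Mrps16 and Mrpl33, with positive fold changes, hold CCGGAAG, as does that of Mrps18b.

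Other genes of mitochondrial translation gave the setting. Of 7 mitoribosomal proteins with other symbols, 5 had a fold change below 0 and 0 passed, with a median of -0.12. This median was 0.06 without Control IgG replicate 1 and 0.02 without anti-PD-L1 replicate 2, and -0.24 without anti-PD-L1 replicate 1, so its sign depended on single libraries. Ptcd3, an RNA-binding protein of the small subunit, stood at 69.2, 57.0 and 59.5 CPM in controls and at 41.4 and 49.6 CPM after anti-PD-L1, with a log2 fold change of -0.43 ± 0.27. Dap3, a GTP-binding protein of the small subunit, had -0.29 ± 0.26. With 1 library left out Ptcd3 ran from -0.53 to -0.25 and Dap3 from -0.43 to -0.11.

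Of 16 mitochondrial translation factors and related proteins, 13 lay below 0, with a median of -0.19, and 0 passed. Pdf, which removes the formyl group from new proteins, had -0.44 ± 0.29 at 53.5, 48.2 and 40.5 CPM against 30.9 and 38.3 CPM. Mtfmt, which adds that group to the initiator transfer RNA, had 0.52 ± 0.38 at 9.84, 21.0 and 23.0 CPM against 22.02 and 27.5 CPM. Both treated libraries lay above all controls on the TMM scale and overlapped with them in CPM. With 1 library left out Pdf ran from -0.58 to -0.25 and Mtfmt from 0.27 to 0.71.

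Factors that assemble the ribosome or modify its RNA had negative fold changes for 19 of 24 genes (median -0.14), and 0 passed. The RNA methyltransferase Rnmtl1, now named Mrm3, stood at 34.3, 24.8 and 24.4 CPM in controls and at 16.7 and 17.5 CPM after anti-PD-L1, with a log2 fold change of -0.70 ± 0.35. Both treated libraries were alike and lay below all controls. Ngrn had -0.59 ± 0.33, with 16.9 CPM in anti-PD-L1 replicate 1 and 32.7 CPM in replicate 2, the latter within the controls in CPM. Leaving out 1 library gave -0.82 to -0.42 for Rnmtl1, -1.015 to -0.26 for Ngrn and -0.21 to -0.16 for the median of the list.

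Genes that transcribe and maintain mitochondrial DNA had negative fold changes for 9 of 10 genes (median -0.25), and 0 passed. That median moved to -0.50 when anti-PD-L1 replicate 2 was left out, to -0.35 when Control IgG replicate 2 was left out, and to -0.43 with the replicate number as a block. Peo1, now named Twnk, the helicase that unwinds mitochondrial DNA for replication, stood at 16.5, 11.4 and 18.1 CPM and at 3.54 and 8.96 CPM, with -1.31 ± 0.50 at an unadjusted p of 0.0299 and an adjusted p of 0.9999 in edgeR. Its exons overlap those of Mrpl43, whose fold change was 0.03 ± 0.24. Top1mt, a topoisomerase of mitochondrial DNA, had -0.78 ± 0.41, and for Peo1 and Top1mt both treated libraries lay below all controls. With 1 library left out Peo1 ran from -1.99 to -0.84 and Top1mt from -1.37 to -0.35.

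Of 8 regulators of mitochondrial biogenesis tested, 5 had a fold change above 0 and 0 passed, with a median of 0.06. The median was below 0 without Control IgG replicate 1 (-0.081), Control IgG replicate 2 (-0.015), anti-PD-L1 replicate 1 (-0.074) or both libraries numbered 1 (-0.048), so no direction can be given. Myc, a driver of ribosome and mitochondrial biogenesis in activated T cells, stood at 673, 503 and 556 CPM in controls and at 213 and 559 CPM after anti-PD-L1. Only replicate 1 lay below the controls, and the fold change was -0.60 ± 0.39. Pprc1, a coactivator of this class, had -0.35 ± 0.31. Leaving out 1 library gave -1.32 to -0.12 for Myc and -0.60 to -0.12 for Pprc1. None of the 15 mitochondrially encoded genes looked for was matched to a listed symbol, so the ribosomal RNAs of the complex were not analysed here.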

How the data were processed

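The authors deposited raw counts of reads, 1 table per library with symbols as row names, made with TopHat and HTSeq on mm10 per the submitters' processing notes. The sources used here give no version, annotation or strand setting. Libraries came from RNA of 5000 to 30000 sorted cells, amplified with 8 and then 12 PCR cycles, a chemistry that marks neither strand nor molecule, per the labels' protocols. The 5 counter lines were left out of library sizes. Reads without a feature made up 7.46% to 15.2% of the counts and ambiguous reads 1.38% to 1.51%. At these depths a floor of 3 counts is 0.234 to 0.300 CPM, which covers counting error only.

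Groups were taken from the labels. CPM scales a gene's counts to a library total of 1000000 counts assigned to genes, and TMM-scaled CPM also divides by edgeR's TMM factor. The test was edgeR's two-sided quasi-likelihood F-test (edgeR 4.0.16, R 4.3.3), with TMM and default filterByExpr (minimum count 10, minimum total 15), adjusted by Benjamini-Hochberg over all 11299 genes. Standard errors were taken as the size of the fold change over the square root of F. Log2 CPM used a prior count of 2. The script was tested on simulated data. DESeq2 1.42.0 and limma 3.58.1 were alternatives, with other scalings, no low-count filter, libraries left out and a replicate block. Exon lengths and positions were read from the basic GENCODE vM21 annotation (GRCm38, also called mm10), to which all 76 members matched, and promoters from RefSeq on GRCm38.p6.

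The members and lists were chosen with earlier results of these data known. Named are, per subunit, the tested members of smallest p, up to 6 per direction, the 3 of highest CPM, and Mrps12, Mrps18a, Mrps18b, Mrps18c, Mrps30, Mrps36, Mrpl3, Mrpl12, Mrpl33 and Mrpl44, and for other lists the 2 of smallest p. The groupings by exon overlap and length, and Mrpl1, Mrpl9, Mrpl42, Mrpl43 and Mrps22 and the list of members below all controls, were chosen after the values were seen.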

Additional observations from a re-analysis of the deposited data

How the results depend on the processing

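The call of 0 members held under all 12 refits, each over all genes. So did the negative sign of the medians of all members, Mrps and Mrpl. The count below 0 ran from 45 to 72 of 76, and the share over all genes was not taken in each refit. Set against all genes, the lower median did not hold in every refit. Without anti-PD-L1 replicate 2 both medians were -0.08, and without Control IgG replicate 1 they were -0.07 for members and -0.02 for all genes. The median of all members lay between -0.30 (anti-PD-L1 replicate 1 left out) and -0.07 (Control IgG replicate 1 left out). Over all genes the test called 0, without the low-count filter 5, with DESeq2 4 and without both libraries numbered 1 it called 1. With library totals in place of TMM 65 members lay below 0, and with DESeq2's size factors 57. The difference between the Mrps and Mrpl medians was -0.0016, moved to -0.032 with subunits by place, and ran from -0.021 to 0.026 with 1 library left out. With the replicate number as a block 0 members passed in edgeR, and the median was -0.25. In that fit 4 members had an unadjusted p under 0.05, all lower, and the share over all genes was not taken. Control IgG replicate 3 has no treated library of its number, so it did not inform the fold change there. The labels do not say that numbers pair the pools. Deviations from group means of the same-numbered libraries correlated across genes at 0.331 and 0.374, with only 2 pairs. In the 2 anti-PD-L1 libraries these deviations are equal and opposite, so the correlations are not separate and cannot decide on pairing.

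Signs of members near 0 were not stable. With 1 library left out, log2 fold changes ran from -0.53 to 0.47 for Mrps14, -0.12 to 0.46 for Mrpl32, -0.14 to 0.33 for Mrpl54, -0.11 to 0.35 for Mrps36, -0.030 to 0.22 for Mrps24, -0.18 to 0.27 for Mrpl49 and -0.12 to 0.52 for Mrpl53. They ran from -0.016 to 0.50 for Mrps16, -0.044 to 0.50 for Mrps18c, -0.10 to 0.49 for Mrps21, -0.47 to 0.13 for Mrps33, -0.37 to 0.063 for Mrps30, -0.21 to 0.069 for Mrps18a, -0.47 to 0.21 for Mrpl18 and -0.16 to 0.074 for Mrpl4. With the replicate block Mrps14 had -0.20, Mrps36 -0.070 and Mrpl32 -0.068. Without both libraries numbered 1 Mrps14 had -0.26, Mrpl49 -0.14 and Mrpl53 -0.016. Mrpl49 had -0.0096 with library totals only and Mrps14 had -0.00042 in limma-voom. The cause was not tested. With 5 libraries the median standard error of a member, 0.28, limits what can be said of single genes.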
